A study of Mus musculus with 4 samples.

Results

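The 35 genes described here are type I interferon response genes, listed by symbol and not chosen by their values in these sections. A row was found for 33 of them among the 32285 genes of the files. Mx1 and Mx2 had no row under those symbols and were not analysed here. RefSeq (GRCm38.p6) lists both as transcribed pseudogenes, and common laboratory strains carry defective copies of these influenza resistance genes. Expression was measured with the Visium assay, in which RNA of a tissue slice is caught by barcoded spots, each commonly under several cells, and every captured molecule carries a unique molecular identifier (UMI). The kidney sections were 10 µm thick and came from male mice on the C57BL/6J background. The 2 Uox_KO sections were from mice lacking exons 2 to 4 of the urate oxidase gene in the whole animal, which accumulate uric acid, and the 2 Control sections were from mice described in the series as wild type. The titles give each section its own mouse, the labels give no age, and sections served as replicates, with n = 2 in each genotype.

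Type I interferons signal through a shared cell surface receptor and the kinases Jak1 and Tyk2. An activated complex that includes Stat2 and Irf9 then binds interferon-stimulated response elements in the promoters of a common set of genes. The products of these genes sense foreign nucleic acid, block viral translation and entry, degrade RNA and adjust the signal itself. In the kidney the programme can be switched on in leukocytes as well as in tubule, vessel and glomerular cells. Type II interferon, made mainly by T and NK cells, acts through a receptor of its own and induces many of the same genes.

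The promoters of several members are shown because they carry the element by which the group is known. RefSeq windows (GRCm38.p6) from 250 bases before to 50 bases after the start site were held for 26 of the 35 members. They were searched on both strands for the core of the interferon-stimulated response element, GAAA followed after any 2 bases by GAAA, and overlapping matches were counted separately. The core was found in 13 of the 26 members (50%), against 3.99% of 27025 genes with a window. The sequences below give the 250 bases before the start site, 5′ to 3′ on the strand of the gene, with matches to the core on either strand in capitals. Oas3 is the 1 gene with a window among the 3 members with the largest fold change, and Rsad2 and Trim25 are those with the smallest. Isg15, Ifit3 and Ifit3b were added after their matches were seen.

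Oas3 (chr5:120777660-120777909, minus strand): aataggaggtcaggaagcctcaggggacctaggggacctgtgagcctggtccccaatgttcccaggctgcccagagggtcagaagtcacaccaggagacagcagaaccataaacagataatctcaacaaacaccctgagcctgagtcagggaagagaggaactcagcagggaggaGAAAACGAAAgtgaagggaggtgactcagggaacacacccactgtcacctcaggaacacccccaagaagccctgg
Isg15 (chr4:156200819-156201068, minus strand): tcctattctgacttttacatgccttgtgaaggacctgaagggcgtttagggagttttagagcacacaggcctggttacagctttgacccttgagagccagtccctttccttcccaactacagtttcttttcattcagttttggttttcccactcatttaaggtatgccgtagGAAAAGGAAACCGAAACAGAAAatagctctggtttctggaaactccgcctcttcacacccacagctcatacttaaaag
Ifit3 (chr19:34583279-34583528, plus strand): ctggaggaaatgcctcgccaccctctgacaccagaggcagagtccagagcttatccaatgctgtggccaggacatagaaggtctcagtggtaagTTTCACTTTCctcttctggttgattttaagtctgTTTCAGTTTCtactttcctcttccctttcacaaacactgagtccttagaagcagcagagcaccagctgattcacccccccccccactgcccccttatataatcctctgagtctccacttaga
Ifit3b (chr19:34607707-34607956, plus strand): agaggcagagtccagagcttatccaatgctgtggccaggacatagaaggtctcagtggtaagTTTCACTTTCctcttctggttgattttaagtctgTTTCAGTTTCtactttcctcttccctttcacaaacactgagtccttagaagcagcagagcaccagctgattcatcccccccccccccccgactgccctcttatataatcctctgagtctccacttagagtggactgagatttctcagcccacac
Rsad2 (chr12:26456453-26456702, minus strand): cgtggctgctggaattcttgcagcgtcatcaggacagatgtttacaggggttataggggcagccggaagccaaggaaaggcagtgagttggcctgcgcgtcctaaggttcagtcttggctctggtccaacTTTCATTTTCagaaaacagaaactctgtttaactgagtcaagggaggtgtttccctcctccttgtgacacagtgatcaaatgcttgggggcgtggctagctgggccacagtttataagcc
Trim25 (chr11:88999153-88999402, plus strand): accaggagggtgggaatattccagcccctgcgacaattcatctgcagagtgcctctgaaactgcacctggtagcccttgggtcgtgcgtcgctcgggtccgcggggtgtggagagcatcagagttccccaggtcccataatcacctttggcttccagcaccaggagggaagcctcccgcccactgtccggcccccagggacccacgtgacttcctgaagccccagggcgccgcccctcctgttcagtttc

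Isg15 held 3 overlapping matches, which began 78, 72 and 66 bases before the start site. Ifit3 and Ifit3b, neighbouring paralogs on chromosome 19, held the same 2 matched sequences, TTTCACTTTC and TTTCAGTTTC on the strand shown, shifted by 32 bases. At that shift, with no gaps allowed, 75% of the 268 overlapping bases of their windows were identical. Reads of these paralogs may not all be assigned to the right gene, and promoter identity does not show how many. Oas3 held 1 match, 75 bases before the start site, and Rsad2 held 1 at 120 bases. No match lay in the Trim25 window. The gamma-activated site TTCNNNGAA, an element of type II interferon promoters, was found in 7 of the 26 members (26.9%), against 9.55% of all genes. A match to it can overlap a match to the core, and such overlaps were kept. The windows of the genes printed above held none. A match is a description of letters and does not show binding.

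The sections differed in depth. The Control sections held 93524222 and 107962997 UMIs in 2528 and 3362 spots, and the Uox_KO sections held 53897511 and 57230517 UMIs in 2650 and 2590 spots. Control spots had medians of 37386 and 32038.5 UMIs, and Uox_KO spots had medians of 16674 and 19599.5. Levels are given as CPM, the UMIs of a gene relative to a library size scaled by the trimmed mean of M values (TMM). Mitochondrial transcripts took at most 14.0% of UMIs in Control and 14.3% to 17.3% in Uox_KO, and Malat1, a nuclear RNA, stood at 94.2 to 127 CPM of the raw total in Control and at 275 to 308 in Uox_KO. Markers of S1 and S2 proximal tubule, which define kidney cortex, summed to 9864 and 10316 CPM in Control and to 4134 and 4775 CPM in Uox_KO. All 11 macrophage markers were higher in Uox_KO, with a summed level of 237 to 259 CPM in Control and 2024 to 2380 CPM in Uox_KO. T and NK cell markers were higher for 10 of 11 tested (8.50 and 8.75 CPM in Control, 42.7 and 40.2 CPM in Uox_KO), fat markers for 7 of 7 (120 and 156 CPM against 1809 and 3459 CPM) and urothelium markers for 6 of 6. Ucp1, of brown fat, was at 0 UMIs in Control replicate 1, and no other marker of these lists but Krt5, of urothelium, was at 0 in a section. B and plasma cell markers were higher for 1 of 6 and lower for 2. Markers of plasmacytoid dendritic cells, strong producers of type I interferon, were higher for 4 of 6 and lower for 1 (17.4 and 15.9 CPM in Control, 69.6 and 48.7 CPM in Uox_KO). Within that sum Tcf4 made up 13.5 and 12.8 CPM in Control and 24.6 and 25.3 CPM in Uox_KO. Ly6d, which urothelium also expresses, made up 0.776 and 0.597 CPM in Control and 43.0 and 21.5 CPM in Uox_KO. The more specific Siglech rested on 8 and 5 UMIs in Control and 22 and 17 in Uox_KO. Of all genes, 34.6% were higher and 32.5% lower in the same test, which is described below. In sums over spots of mixed cells, more cells of a type and more RNA per cell cannot be told apart, and the part of these markers in each result below was not tested unless a value is given. Barcodes name positions on the slide: 1713 of 3936 were found in all 4 sections, and no cell is thereby shared.

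Over whole sections the group rose nearly as a body. Of the 33 members, 30 passed as higher in Uox_KO in the quasi-likelihood test of edgeR, with adjusted p the Benjamini-Hochberg value over 16369 genes and a threshold of 0.05. Of all genes tested, 34.6% were higher, so a single higher member is common here, and the count of the group stands above that share. The median log2 fold change of the members was 1.44, against 0.00 over all genes. Both Uox_KO sections lay above both Control sections for the same 30 members, as they did for 43.1% of all genes. None was lower, with 0 also at an unadjusted p under 0.05 and 0 by DESeq2, whereas 32.5% of all genes were lower. The summed level of the members was 368 and 354 CPM in Control and 1105 and 1261 CPM in Uox_KO. The 3 members not called were Rsad2, Trim25 and Ifi44.

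**Figure D1:**
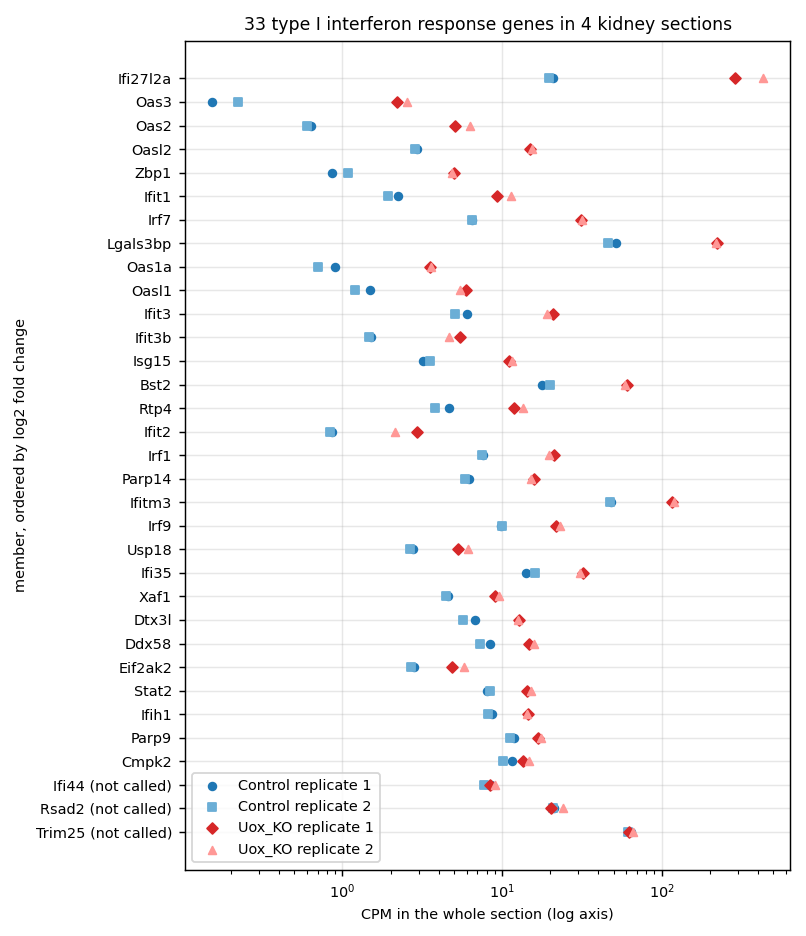
Level of each of the 33 members in the 4 whole sections, in CPM on a log axis, 1 point per section, ordered by log2 fold change. The Uox_KO points lie right of the Control points for 30 members and mix with them for Ifi44, Rsad2 and Trim25.

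The 4 sensors of foreign nucleic acid all rose, with a median log2 fold change of 0.95. Zbp1, a sensor of Z-form nucleic acid that can trigger cell death, was at 0.859 and 1.08 CPM in Control and at 4.97 and 4.87 CPM in Uox_KO. Its log2 fold change was 2.33 (standard error 0.15, adjusted p 2.65e-05), the largest of the sensors. Ifih1, for the long double-stranded RNA sensor MDA5, had the smallest, 0.78 (standard error 0.07), from 8.69 and 8.15 CPM to 14.6 and 14.3 CPM. Both Uox_KO sections lay above both Control sections for either gene, as they did for 43.1% of all genes. Ddx58, which encodes the RNA helicase RIG-I, and Eif2ak2, for the kinase PKR that halts translation, had log2 fold changes of 0.96 and 0.94.

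The 4 transcription factors rose as well, with a median log2 fold change of 1.31. Irf7, the factor that amplifies interferon production and is itself induced by interferon, was at 6.52 and 6.49 CPM in Control and at 31.3 and 31.8 CPM in Uox_KO. Sections of 1 genotype lay close together, and the log2 fold change was 2.28 (standard error 0.06, adjusted p 1.34e-06). Stat2, a subunit of the complex that binds the response element, went from 7.99 and 8.38 CPM to 14.3 and 15.1 CPM, the smallest rise of the factors at 0.85. Irf9, its DNA-binding partner, and Irf1, a factor also induced by type II interferon, stood between them at 1.18 and 1.44.

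All 4 IFIT genes, whose products bind viral RNA and restrain its translation, were higher, with a median of 1.81. Ifit1 was at 2.21 and 1.92 CPM in Control and at 9.28 and 11.3 CPM in Uox_KO, the largest log2 fold change of the family at 2.32. Ifit2 was the smallest at 1.58, from 0.859 and 0.829 CPM to 2.91 and 2.14 CPM. Even for Ifit2 the lower Uox_KO section lay above both Control sections, as it did for 43.1% of all genes. The paralogs Ifit3 and Ifit3b had log2 fold changes of 1.85 and 1.77.

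The OAS family had the largest median of the role groups, 2.40, with all 5 members higher. These genes encode oligoadenylate synthetases and relatives, the first group of which makes a messenger that activates RNase L. Oas3 was at 0.153 and 0.223 CPM in Control, which is 13 and 22 UMIs, and at 2.18 and 2.55 CPM in Uox_KO (log2 fold change 3.63, standard error 0.24, adjusted p 2.96e-05). Oas2 followed with 3.20, and the smallest of the family was Oasl1 at 2.09, from 1.49 and 1.19 CPM to 5.96 and 5.47 CPM. The Uox_KO sections lay above the Control sections for each of the 5 genes, as they did for 43.1% of all genes. Oas1a, Oas2 and Oas3 lie together on chromosome 5, and Oas1a has close paralogs with which it may share reads.

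The membrane restriction factors and the Rsad2 and Cmpk2 pair did not move together. Ifitm3, which hinders fusion of viruses in endosomes, was at 48.4 and 47.3 CPM in Control and at 116 and 120 CPM in Uox_KO, 2.47 times as much (adjusted p 6.05e-06). Bst2, for tetherin, which holds budding virus at the cell surface, went from 17.8 and 20.1 CPM to 60.7 and 58.9 CPM, a log2 fold change of 1.66. For Ifitm3 and Bst2 the Uox_KO sections lay above the Control sections, as they did for 43.1% of all genes. Rsad2, for the radical SAM enzyme viperin, was at 21.1 and 20.9 CPM in Control and at 20.2 and 24.0 CPM in Uox_KO (log2 fold change 0.07, standard error 0.09, adjusted p 0.50). The Control values lay between the 2 Uox_KO values, and without Uox_KO replicate 2 the log2 fold change was -0.05. Cmpk2, a mitochondrial nucleotide kinase whose gene (chr12:26469117-26479837) lies next to Rsad2 (chr12:26442743-26456452) on the opposite strand, had the smallest called change, 0.38. It was at 11.5 and 10.2 CPM in Control and at 13.4 and 14.7 CPM in Uox_KO. Its adjusted p was 0.0085, and without Control replicate 2 it was 0.0657 at a log2 fold change of 0.28. Cmpk2 was singled out after its values were seen.

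In the ISG15, ubiquitin and ADP-ribose system 5 of 6 members rose, with a median of 1.04. Isg15, the ubiquitin-like modifier, was at 3.21 and 3.54 CPM in Control and at 11.1 and 11.5 CPM in Uox_KO, a log2 fold change of 1.74. Usp18, which removes ISG15 and damps the receptor, had 1.07, and the partners Dtx3l and Parp9 had 1.02 and 0.58. Parp14, another ADP-ribosyl transferase, had 1.36. Trim25, the ubiquitin ligase that activates RIG-I, was at 64.4 and 61.9 CPM in Control and at 62.2 and 66.5 CPM in Uox_KO (log2 fold change 0.03, standard error 0.06, adjusted p 0.70). Its sections overlapped. Without Control replicate 2 its log2 fold change was -0.01, and likewise without Uox_KO replicate 2.

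Among the other induced genes 5 of 6 rose, and Ifi27l2a (chr12:103433873-103443680) stood apart from every other member. This gene encodes a small hydrophobic protein of the ISG12 family. It was at 20.9 and 19.6 CPM in Control and at 290 and 430 CPM in Uox_KO, a log2 fold change of 4.15 (standard error 0.19, adjusted p 7.51e-06). The Uox_KO sections differed from each other more than for other abundant members. Lgals3bp, a secreted glycoprotein that binds galectins, was at 51.8 and 46.4 CPM in Control and at 222 and 220 CPM in Uox_KO, a log2 fold change of 2.17. Ifi35, Xaf1 and Rtp4 had log2 fold changes of 1.05, 1.05 and 1.60. Ifi44, a cytoplasmic protein induced by interferon, was at 8.53 and 7.73 CPM in Control and at 8.37 and 9.01 CPM in Uox_KO. Its log2 fold change of 0.10 was not called (adjusted p 0.37).

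The call of the other 3 members turned on the scaling. With library size in place of TMM the median of all genes shifted by 0.27, and Rsad2 (0.33), Trim25 (0.29) and Ifi44 (0.36) were then called higher. Their changes relative to that shift were small, and the 30 others were called higher under both scalings.

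Transcripts of the interferons themselves were nearly absent. Of 20 type I and III interferon genes, 18 had 0 UMIs in all 4 sections, Ifnb1 among them. The limit that 0 counts allow, 3 UMIs, corresponds to 0.0353 and 0.0303 CPM in Control and to 0.0499 and 0.0487 CPM in Uox_KO (counting error only). Ifnz had 3 and 6 UMIs in Control and 3 and 3 in Uox_KO, and Ifnab had 1 UMI in Control replicate 2. Ifng, the type II interferon, had 7 and 3 UMIs in Control and 6 and 4 in Uox_KO and did not pass the filter on low counts. These levels do not show how much protein was present.

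Receptor and kinase genes rose for 7 of 10, with 1 lower (34.6% and 32.5% of all genes). Ifnar1 and Ifnar2, the type I receptor chains, had log2 fold changes of 0.49 and 0.55, with Ifnar1 at 15.8 and 15.6 CPM in Control and at 22.5 and 21.7 CPM in Uox_KO. Ifngr1, a chain of the type II receptor, had the largest of the list at 1.78, from 35.7 and 37.5 CPM to 133 and 119 CPM. Ifngr2 had 0.94, and the chains used by type III interferon, Ifnlr1 and Il10rb, had 1.49 and 0.50. Jak1 was lower at -0.34, and Jak2 and Tyk2 were not called.

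Genes that detect nucleic acid and start interferon production rose for 13 of 17 tested and fell for 3, with a median of 1.43. Of all genes tested, 34.6% were higher and 32.5% lower, the shares to set beside each count here. Tmem173, for the adaptor STING, went from 1.76 and 1.85 CPM to 11.3 and 10.8 CPM. The DNA-binding genes Ifi207 and Ifi204 had log2 fold changes of 2.88 and 2.26. The 3 lower genes were the kinase Tbk1 (-0.46), the adaptor Ticam1 (-0.32) and the factor Irf3 (-0.15), chosen after their values were seen. Of 10 tested brakes on the signal, 6 rose and 1 fell (34.6% and 32.5% of all genes). Socs3, a feedback inhibitor of receptor kinases that is also induced by other cytokines, had 3.70, Samhd1 1.24 and the RNA-editing enzyme Adar 0.80. All 16 type II interferon inducible GTPases were higher, with a median of 1.36, led by p-value by Gbp3 (1.96), Gbp7 (1.47) and Gbp2 (1.71). The 8 other tested genes of the type II response were higher too, with a median of 2.02, among them the immunoproteasome subunit Psmb8 (2.14), the chemokine Cxcl9 (2.71) and the regulator Nlrc5 (2.16). Genes of both responses were higher in the same sections, and many listed genes respond to both.

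The question whether the rise was diffuse or focal was put to the spots. No spot positions were used here, so focal means concentrated in few spots, not adjacent. Each spot was thinned at random to 5000 UMIs, which left out 6 and 4 shallower spots in Control and 293 and 152 in Uox_KO. At that depth the median spot held 1 and 1 member UMIs in Control and 6 and 5 in Uox_KO. At least 1 member UMI was seen in 79.1% and 77.9% of Control spots and in 97.5% and 97.1% of Uox_KO spots. The Control median was exceeded by 91.7% and 89.3% of Uox_KO spots. More than 7 UMIs, the 99th percentile of Control, were held by 34.2% and 34.2% of Uox_KO spots. Of Control spots, 49.7% and 48.0% themselves exceeded the Control median. The shift of the summed count of all members thus covered most spots of both Uox_KO sections. It was less wide without the 4 members of most UMIs, named below. Then 59.1% and 57.1% of Uox_KO spots exceeded the Control median, against 22.4% and 21.1% of Control spots.

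The same counts were also more unequal in Uox_KO. The richest 10% of spots held 28.7% and 29.6% of member UMIs in Control and 34.4% and 36.7% in Uox_KO. The coefficient of variation beyond counting error was 0.54 and 0.55 in Control and 1.11 and 1.13 in Uox_KO. When the 4 members with the most UMIs, Ifi27l2a, Lgals3bp, Ifitm3 and Trim25, were set aside, the richest 10% held 35.5% and 35.6% in Control against 33.5% and 36.9% in Uox_KO, so that the groups overlapped. At 10000 UMIs per spot they did not, with 29.1% and 29.3% in Control against 32.7% and 35.3% in Uox_KO. The coefficient of variation at 5000 UMIs was 0.59 and 0.62 in Control against 0.88 and 1.13 in Uox_KO. The median spot without these 4 genes held 1 and 1 member UMIs in Control and 2 and 2 in Uox_KO, and 18.5% and 18.1% of Uox_KO spots exceeded the Control 99th percentile.

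**Figure D2:**
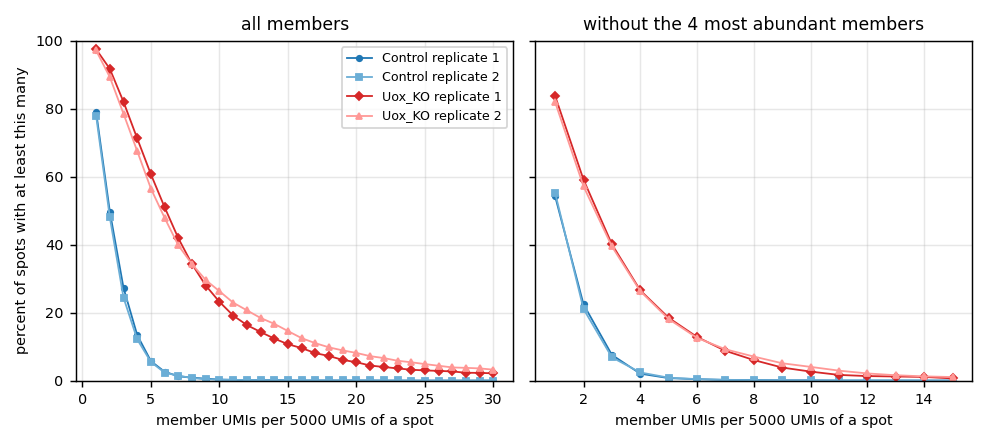
Percent of spots holding at least a given number of member UMIs, after thinning each spot to 5000 UMIs, for all 33 members (left) and without the 4 most abundant (right), 1 line per section. From 1 UMI up to the highest number in Control, 23 on the left and 14 on the right, both Uox_KO lines lie above both Control lines, with 97.5% and 97.1% against 79.1% and 77.9% at 1 UMI on the left.

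Members differed in how far they gathered in the same spots. For each, the level in the 10% of spots richest in the other 32 members was divided by its level in the remaining spots. In Uox_KO this ratio was highest for Oas3 (mean of both sections 6.30), Zbp1 (5.81), Oas2 (5.13), Isg15 (5.13) and Usp18 (4.94). It was lowest for Trim25 (1.23), Dtx3l (1.63), Ddx58 (1.73), Lgals3bp (1.83) and Ifih1 (1.83). Among the genes with a large fold change some gathered in the member-rich spots, such as Oas3 and Zbp1, and some less so, such as Ifit1 (2.53) and Lgals3bp. Irf7 had ratios of 4.25 and 4.37 in Uox_KO and of 2.17 and 1.37 in Control, and Isg15 had 5.28 and 4.97 against 2.32 and 0.96. Rsad2, not called over whole sections, had 2.71 and 2.54 in Uox_KO and 1.60 and 1.22 in Control. The ratio of Oas3 rests on 35 and 47 UMIs in the thinned Uox_KO sections, and it was 4.69 in replicate 1 and 7.91 in replicate 2. Those of Zbp1 rest on 78 and 80 UMIs, of Oas2 on 86 and 112 and of Usp18 on 65 and 84. The order among these genes is therefore not firm. The Control ratios rest on only 72 and 106 UMIs for Irf7 and 39 and 62 for Isg15, so counting noise weighs more there. In Uox_KO the ranking sum counted Ifi27l2a most, with 5597 and 6657 thinned UMIs, except in its own ratio. The spots richest in all members summed were also rich in fat markers, as given below. Ratios ranked without the 4 most abundant members were not computed.

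**Figure D3:**
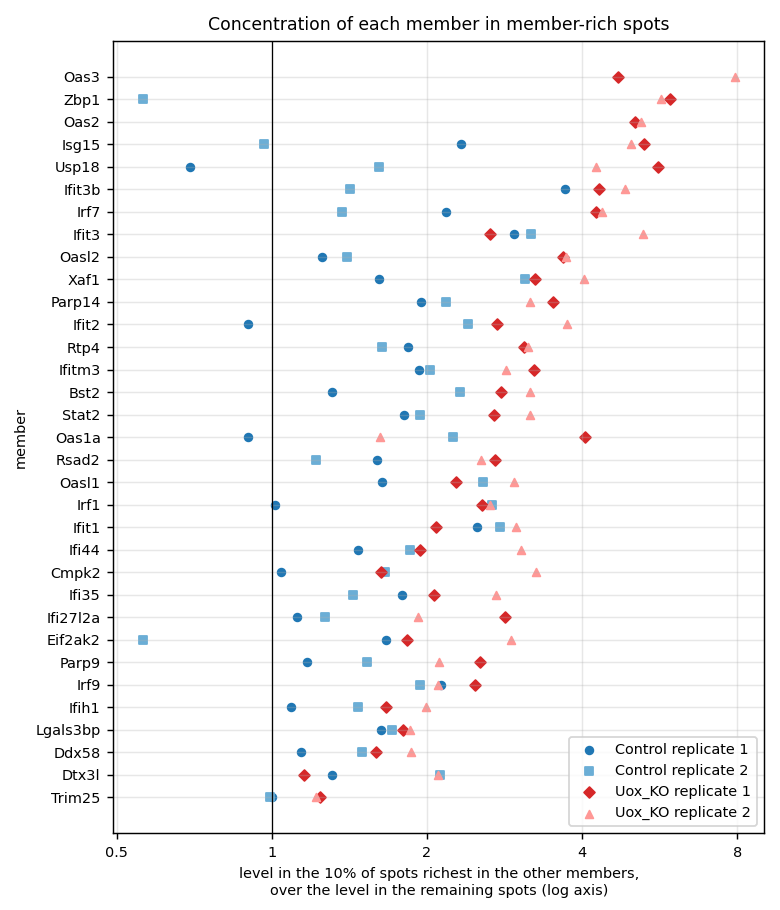
Level of each member in the 10% of spots richest in the other members over its level in the remaining spots, on a log axis, 1 point per section. Ratios with under 10 UMIs in the remaining spots are not drawn, and Uox_KO ratios run from 1.23 for Trim25 to 6.30 for Oas3 as means of both sections.

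The share of spots with a UMI shows the same contrast. Lgals3bp was seen in 22.6% and 19.7% of Control spots and in 68.3% and 68.7% of Uox_KO spots at 5000 UMIs. Ifi27l2a was seen in 9.08% and 9.44% against 59.3% and 58.6%, and a single Uox_KO spot held up to 115 of its UMIs. Irf7 went from 2.78% and 3.07% to 18.4% and 16.2%, and Oas3 only reached 1.40% and 1.80%. Unthinned, with deeper Control spots, the shares were 79.5% and 71.3% against 92.3% and 93.7% for Lgals3bp, 46.3% and 38.2% against 86.8% and 87.2% for Ifi27l2a, and 18.6% and 16.7% against 39.1% and 40.8% for Irf7.

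What else the member-rich spots held differed with and without the 4 members of most UMIs. With all members summed, the richest 10% of Uox_KO spots held 7.65 and 10.9 times the fat marker UMIs of the remaining spots. Without the 4 most abundant members the ratio was 0.44 and 0.54. Macrophage markers stood at 2.54 and 3.31 times, podocyte markers at 4.75 and 4.23 times and the type II inducible GTPases at 3.52 and 3.51 times the level of the remaining spots in that second ranking. In Control the same ranking gave 1.48 and 1.47 for macrophage, 3.01 and 3.23 for podocyte markers and 2.81 and 2.33 for the GTPases. S1 and S2 proximal tubule markers were at 0.60 and 0.49 in Uox_KO and at 0.96 and 0.94 in Control. Over spots, Spearman's rho between the member sum without those 4 genes and macrophage markers was 0.54 and 0.57 in Uox_KO (2357 and 2438 spots) and 0.10 and 0.11 in Control (2522 and 3358 spots), a description over spots that share a library and tissue. The mean of that sum was 0.88 and 0.87 UMIs per spot in Control against 2.71 and 2.78 in Uox_KO. Low counts can pull rho and the ratios of Control towards no association. How far they did was not tested, so the genotypes cannot be compared directly here.

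The group was then compared within sets of spots, taken as the 10% of spots of each section richest in the markers of a list. Spots were ranked within each section, so a set need not hold the same tissue in both genotypes. Macrophage markers summed to 722 and 680 CPM in macrophage-rich spots of Control and to 10534 and 10681 CPM in those of Uox_KO. Injured tubule markers summed to 1982 and 2198 CPM against 5055 and 5823 CPM in their set. The injury marker Havcr1 had only 26 and 30 UMIs in whole Control sections. Such spots hold several cell types, the sets overlap, and they carry different amounts of macrophage RNA. In podocyte-rich spots, which mark glomeruli, all 33 members were higher (28.6% of all genes were), with a median log2 fold change of 1.52. Rsad2, Trim25 and Ifi44, not called in whole sections, were at 0.70, 0.32 and 0.75 there. In macrophage-rich spots 30 of 33 were higher (32.7% of all genes) with the largest median, 1.78, and in injured tubule-rich spots 29 of 33 (31.6%) with 1.68. Collecting duct-rich spots had 27 of 32 (20.4%) with 1.28, fat-rich spots 23 of 30 (26.7%) with 1.21, S3 proximal tubule-rich spots 24 of 32 (22.7%) with 1.11 and thick ascending limb-rich spots 28 of 33 (22.3%) with 1.09. The smallest were S1 and S2 proximal tubule-rich spots, with 19 of 30 higher (22.7%) and a median of 0.80. Members passed the filter in each set partly through the genotype in which they are high. In fat-rich spots 2 members, Trim25 and Ifi44, were lower (27.6% of all genes), and 12 were higher in place of 23 when either Control section was left out. The S1 and S2 count was 10 by DESeq2 and 12 in the top 5% of spots.

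**Figure D4:**
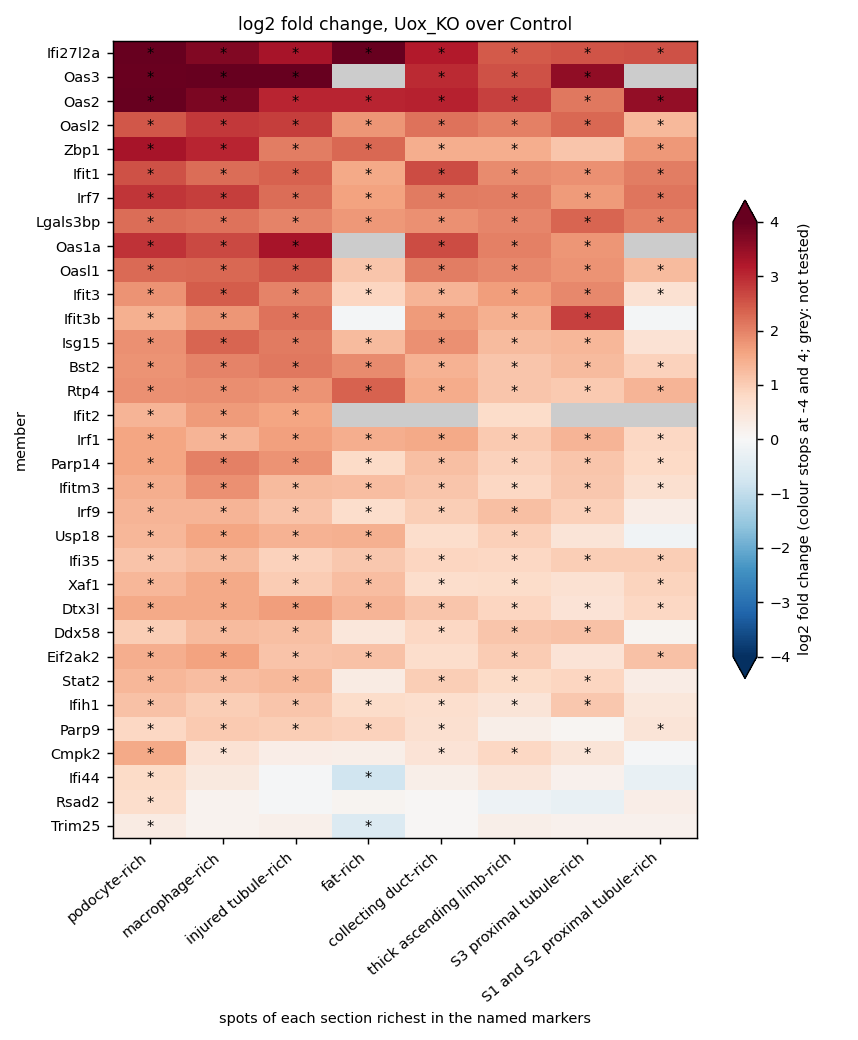
Log2 fold change of each member in 8 sets of marker-rich spots, as colour, with a star where edgeR's adjusted p was under 0.05 and grey where the gene was not tested. Every tested member in podocyte-rich spots is starred, against 19 of 30 in S1 and S2 proximal tubule-rich spots, and the blue cells with a star are Trim25 and Ifi44 in fat-rich spots.

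Levels within the sections also differed between the sets without Ifi27l2a. The other 32 members summed to 1704 and 2004 CPM in macrophage-rich spots and to 1555 and 1863 CPM in podocyte-rich spots, but to 554 and 547 CPM in S3-rich spots. In Control those sums were 577 and 587, 561 and 586, and 261 and 255 CPM, so the S3-rich spots were already the lowest of these 3 sets. Macrophage markers also differed between the sets, but not always in the order of these levels. They summed to 399 and 360 CPM in podocyte-rich spots of Control and to 4698 and 5477 CPM in those of Uox_KO, and to 201 and 176 CPM against 1062 and 800 CPM in S1 and S2-rich spots. In Uox_KO, S3-rich spots held more macrophage marker RNA (1576 and 1103 CPM) than S1 and S2-rich spots. The sum of the 32 members in S3-rich spots was lower than the 601 and 593 CPM of S1 and S2-rich spots. It was already lower in Control, where S1 and S2-rich spots held 318 and 307 CPM. The median log2 fold change of the members was larger in S3-rich (1.11) than in S1 and S2-rich spots (0.80). Injured tubule-rich spots of Uox_KO held 4732 and 4422 CPM of macrophage markers and 1167 and 1225 CPM of the 32 members. The part of macrophage RNA in these levels was not tested. Of the podocyte-rich spots of Uox_KO, 17.4% and 28.2% were also macrophage-rich, against 26.9% and 27.7% in Control. These spots were also shallower in Uox_KO, with 8571 and 10276 UMIs per spot against 25688 and 22938.

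Whether the genotype difference itself differed between a set and the other spots was tested in a fit with the section as a block. In S1 and S2-rich spots the difference was smaller for 16 of 33 members (14.8% of all genes), with a median change of -0.68 on the log2 scale. The largest of these were Ifit3b (-2.07, standard error 0.44), Ifit2 (-1.89), Ifi27l2a (-1.73) and Ifit3 (-1.41), and Isg15 had -1.28. Irf7 was not among them, and it was higher even there, from 4.60 and 4.07 CPM to 20.3 and 18.3 CPM. Smaller differences were called for 4 members in S3-rich spots (2.84% of all genes), for 7 in thick ascending limb-rich spots (6.44%) and for Lgals3bp in collecting duct-rich spots (2.89%). In macrophage-rich spots it was larger for 9 members (8.88%), namely Irf7, Ifit3, Bst2, Ifitm3, Isg15, Dtx3l, Parp9, Parp14 and Xaf1, and smaller for Ifi27l2a (20.6%). In injured tubule-rich spots it was larger for Oas1a, Bst2 and Dtx3l (8.17%) and smaller for Ifi27l2a and Lgals3bp (20.1%).

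These counts depend on single sections. The 9 of macrophage-rich spots were 4 without Control replicate 1, 14 without Uox_KO replicate 1 and 3 without Uox_KO replicate 2. The 7 of the thick ascending limb were 3 without either Control section and 4 without Uox_KO replicate 2, and the 4 of S3 were 2 without Control replicate 2 but 8 and 7 without Uox_KO replicates 1 and 2. The 1 of the collecting duct was 0 without either Control section and 6 and 3 without Uox_KO replicates 1 and 2. In injured tubule-rich spots the count of smaller differences was 1 without Control replicate 1 and 4 without Uox_KO replicate 2, and the 1 of macrophage-rich spots was 0 without Control replicate 1. The 16 of S1 and S2 stayed between 11 and 16.

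In podocyte-rich spots the genes with a larger difference included Rsad2 and Cmpk2, which changed little or were not called over whole sections. The difference was larger there for 3 members (1.35% of all genes): Cmpk2 by 1.16 (standard error 0.18, adjusted p 0.0014), Rsad2 by 0.58 and Irf7 by 0.54. Cmpk2 was at 11.8 and 12.5 CPM in podocyte-rich spots of Control and at 34.97 and 35.1 CPM in those of Uox_KO. In S1 and S2-rich spots it was at 11.5 and 12.6 CPM in Control and at 11.9 and 11.4 CPM in Uox_KO, where the sections overlapped. Rsad2 was at 29.9 and 33.2 CPM against 42.5 and 59.1 CPM in podocyte-rich spots. The count of 3 was 1 without Control replicate 1 and 6 without Uox_KO replicate 1.

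Ifi27l2a stood apart in fat-rich spots by the size of its genotype difference. It was at 33.4 and 42.9 CPM there in Control and at 2355 and 3239 CPM in Uox_KO, a log2 fold change of 6.19 (standard error 0.27, adjusted p 1.16e-06). Its difference was larger in fat-rich than in other spots by 3.01, the 1 member so called (13.8% of all genes), whereas 12 members had a smaller difference there (22.1%), among them Ifit2 (-2.50), Ifit3b (-2.04), Ifit3 (-1.11) and Irf7 (-0.78). Without Uox_KO replicate 1 the larger count was 4, and without either Control section the smaller count was 6. Fat markers in these spots summed to 353 and 869 CPM in Control and to 27100 and 34463 CPM in Uox_KO, so the fat-rich spots of Control held little fat by comparison. Without the 25% of spots richest in fat and urothelium markers, Ifi27l2a over whole sections had a log2 fold change of 3.07 in place of 4.15. Outside fat it was still higher in each of the other 7 sets, from 2.46 in thick ascending limb-rich to 4.34 in podocyte-rich spots.

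**Figure D5:**
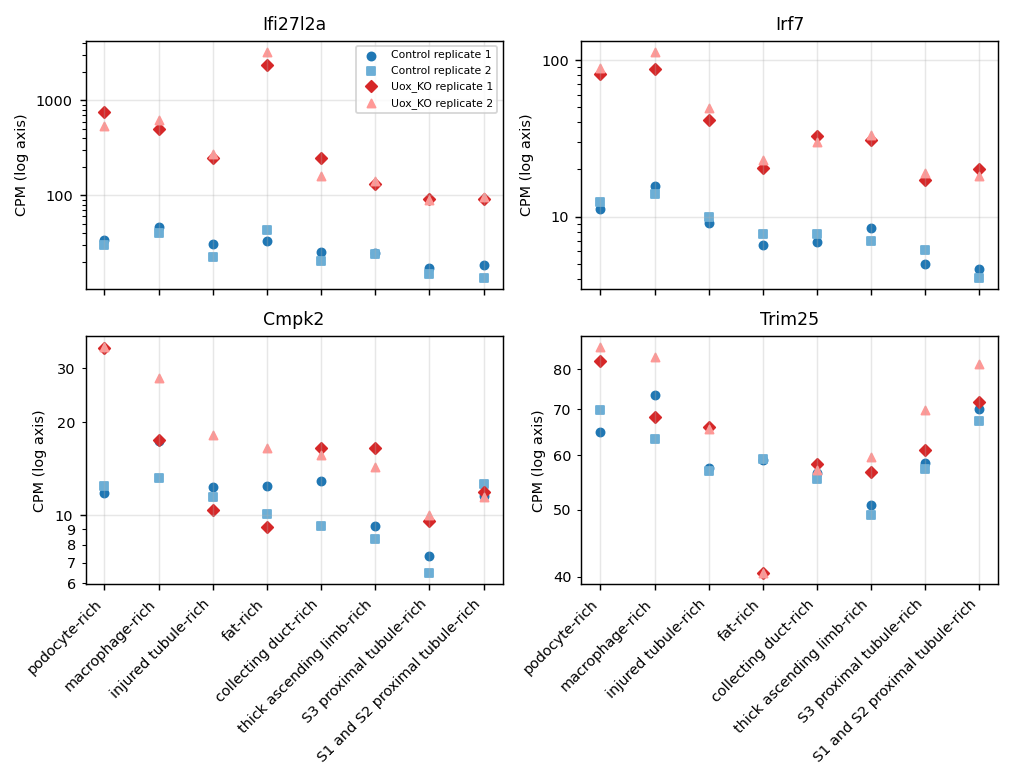
Level of 4 members in the 8 sets of marker-rich spots, in CPM on log axes that differ between panels, 1 point per section. Ifi27l2a peaks in fat-rich spots of Uox_KO at 2355 and 3239 CPM, Irf7 in macrophage-rich spots at 88.1 and 113 CPM, Cmpk2 in podocyte-rich spots at 34.97 and 35.1 CPM, and Trim25 is lowest in fat-rich spots of Uox_KO at 40.5 and 40.5 CPM.

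The last comparison asked whether the rise was seen in spots that show no leukocyte transcripts. At 5000 UMIs, 917 and 1287 spots (36.4% and 38.3%) of Control had no UMI of 35 immune markers, but only 48 and 77 spots (2.04% and 3.16%) of Uox_KO did. In these spots 2 of 21 tested members were higher (5.81% of all genes), with a median log2 fold change of 0.31. Ifi27l2a was at 18.2 and 22.0 CPM in Control and at 495 and 474 CPM in Uox_KO, a log2 fold change of 4.56 (adjusted p 2.88e-30). Lgals3bp was at 45.02 and 39.2 CPM against 172 and 176 CPM, at 2.06. Ifitm3, at 0.31 (standard error 0.30), and Irf7, on 3 and 2 Uox_KO UMIs, were not called. The other members rest on at most 19 UMIs in a Uox_KO section, so differences of the size seen in whole sections were not detectable for many of them.

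In the 25% of spots poorest in macrophage and T and NK cell markers, an alternative added after the data were seen, 23 of 33 members were higher (25.9% of all genes), with a median of 0.85. Ifi27l2a had 4.61, Lgals3bp 1.95, Irf7 1.61 and Isg15 0.89 there. Stat2, Ifit2, Ifit3b, Oas1a, Cmpk2, Dtx3l and Parp14, called in whole sections, were not called. The immune markers were at 72.4 and 62.8 CPM in those Control spots and at 614 and 451 CPM in those Uox_KO spots, above the 243 and 225 CPM of whole Control sections, so the spots were not matched for leukocyte RNA. Without the 25% of spots richest in these markers the median over the members was 1.34, and Ifi44 had a log2 fold change of -0.08.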

How the data were processed

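Visium counts of 2 Uox_KO and 2 Control kidney sections were analysed. The authors deposited unnormalized UMI counts of each gene at each spot. Per the submitters' processing notes these come from Space Ranger 1.3.1 and mm10. Groups and replicate numbers come from the labels, and the deposited file names number the sections differently. The members and lists were chosen with earlier results of these data known. Counts of spots with at least 500 UMIs (1 spot left out) were summed per section, or over the 10% of spots with the highest marker score, the sum over markers of log2(1 + UMIs per 10000), and tested with edgeR 4.0.16 (R 4.3.3): filterByExpr, TMM, quasi-likelihood test of genotype, Benjamini-Hochberg adjustment over all genes tested, threshold 0.05. Set differences used a set by genotype term with section as block. Nothing states a shared litter or run. A p-value weighs the genotype difference against counting error and the spread of the 2 sections of a genotype. That spread was estimated with help from all genes tested and may be technical. The exact permutation test on 2 against 2 cannot go below 0.333 and was not used. Thinning used numpy 2.4.6 (seed 1). Promoters are RefSeq windows of GRCm38.p6. Alternatives included DESeq2 1.42.0, no filter, library size scaling, other depths, cuts and spot sets, and each section left out. Values in each section are given for members with the largest and smallest change of a role group and for members averaging 50 CPM or more, and pathway genes for the receptors, Ifng, detected ligands and up to 3 per list by p. Whether same-numbered sections pair was checked: deviations correlated at 0.09 over genes, and no pairing was modelled in the main test. Such a correlation cannot exclude a shared run. Total counts per section set the precision, and limits for a count of 0 (3 counts) cover counting error only. Results of 1 pathway gene are not reported here.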

Additional observations from a re-analysis of the deposited data

Results flagged for a closer look

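The genotype difference of some of the 33 members differed between marker-rich and other spots by the set by genotype test of edgeR, adjusted over all genes. It was larger for 3 members in podocyte-rich (1.35% of all genes), 3 in injured tubule-rich (8.17%), 9 in macrophage-rich (8.88%) and 1 in fat-rich spots (13.8%). It was smaller for 16 members in S1 and S2 proximal tubule-rich (14.8% of all genes), 4 in S3 proximal tubule-rich (2.84%), 7 in thick ascending limb-rich (6.44%), 1 in collecting duct-rich (2.89%), 2 in injured tubule-rich (20.1%), 1 in macrophage-rich (20.6%) and 12 in fat-rich spots (22.1%). The counts in injured tubule-rich and collecting duct-rich spots, the larger count in fat-rich and the smaller count in macrophage-rich spots lay near or below the share over all genes. Macrophage marker levels differed between the genotypes in each of these sets, and their part was not tested.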

How the results depend on the processing

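Of 316 counts and spread values under alternatives, 256 kept within 1.5 times of the count or 1 SD of the value reported, and 60 moved. Many of these counts were 0 in the main test, and a 0 that stayed 0 was scored as kept. The share kept is therefore no measure of how stable the counts above 0 were. Single members kept direction and call in 412 of 429 cases, with 8 calls lost, 3 gained and 6 directions turned. Turned were Rsad2 (-0.051 to 0.19 with a section left out, the lowest without Uox_KO replicate 2), Trim25 (-0.013 without Uox_KO replicate 2, -0.0074 without Control replicate 2 and at most 0.077 with a section left out, -0.074 in the 25% of spots poorest in immune markers, an alternative chosen after seeing the data) and Ifi44 (-0.079 without the 25% of spots richest in immune markers, -0.47 in the poorest 25%), none of them called in whole sections. The replicate numbers were not treated as pairs after the check, which cannot exclude pairing. With the replicate block the count of higher members over whole sections was 30, as without it, over all genes 5739 were higher and 5378 lower, and no count of members within a set or without immune UMIs moved by over 1.5 times.

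With each section left out in turn, higher members numbered 29 to 30 in whole sections, 12 to 24 in fat-rich and 15 to 16 in S1 and S2-rich spots, and lower members 0 to 2 in fat-rich and 0 to 1 in S3-rich spots. The members with a larger genotype difference numbered 1 to 6 in podocyte-rich, 3 to 14 in macrophage-rich and 1 to 4 in fat-rich spots, and those with a smaller one 0 to 1 in podocyte-rich, 2 to 8 in S3-rich, 3 to 6 in thick ascending limb-rich, 0 to 6 in collecting duct-rich, 1 to 4 in injured tubule-rich, 0 to 1 in macrophage-rich and 6 to 14 in fat-rich spots. DESeq2 called 10 members higher in S1 and S2-rich and 1 lower in fat-rich spots. With no filter on low counts 1 member was lower in S3-rich spots, and the difference was smaller for 5 in collecting duct-rich and larger for 2 in fat-rich spots. In the top 5% of spots 12 members were higher in S1 and S2-rich spots. The difference was then smaller for 1 in podocyte-rich, 1 in S3-rich, 2 in collecting duct-rich and 2 in macrophage-rich spots, and larger for 1 in injured tubule-rich and 1 in macrophage-rich spots. In the top 20% it was larger for 7 in podocyte-rich, 2 in S3-rich, 5 in injured tubule-rich, 18 in macrophage-rich and 2 in fat-rich spots, and smaller for 3 in thick ascending limb-rich, 0 in macrophage-rich and 5 in fat-rich spots, and no member was lower in fat-rich spots (0). The cause of these moves was not tested.

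At 10000 UMIs per spot the mean of the Control sections was 24.9% of member UMIs in the richest 10%, a median of 3 UMIs and a coefficient of variation of 0.47, and the mean of the Uox_KO sections was a median of 9.5 UMIs and a coefficient of 1.20. At 5000 UMIs without the 4 most abundant members the Control share was 35.6% and the coefficient 0.60, and in Uox_KO the median was 2 and the coefficient 1.01. With another random seed at 5000 UMIs the Control median was 1.25 and the coefficient 0.49. The depth of Uox_KO, lower than that of Control, limits the rare members most.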
